A study of Mus musculus with 12 samples.

Results

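Immune checkpoint ligands are surface proteins with which a cell restrains the T cells, natural killer cells or macrophages that touch it. The 7 genes described here, Cd274, Cd276, Cd80, Vsir, Nectin2, Pvr and Cd47, were taken by symbol from the 78317 genes of the expression table, and all 7 had counts. Of these, 4 (Cd276, Nectin2, Pvr and Cd47) passed the filter on low counts and stood among the 14012 genes tested, while Cd274, Cd80 and Vsir did not. Messenger RNA came from the murine triple-negative breast cancer line 4T1, in 12 libraries of 4 groups with 3 biological replicates each. The groups were control cells and PBRM1 knockout (KO) cells, each left untreated or given 5 ng/ml TGFβ1 for 4 days. Untreated libraries are labelled with the starting time point, and no label states 4 days of culture without TGFβ1. Time in culture may thus differ between untreated and TGFβ1 libraries. Its part in the differences given as after TGFβ1 was not tested. PBRM1 belongs to the PBAF chromatin remodelling complex, where its bromodomains bind acetylated histones, and TGFβ1 acts on cells by way of SMAD transcription factors. The labels do not say whether the KO cells are a clone or a pool, nor where Pbrm1 was edited. The tumour cells were cultured on plates without added immune cells.

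Cd274 encodes PD-L1, which engages PD-1 on T cells, and Cd80 encodes B7-1, which binds CD28 and CTLA-4. Cd276 (B7-H3) and Vsir (VISTA) are further members of the B7 family. Nectin2 (CD112) and Pvr (CD155) are adhesion proteins of the nectin family that are read by the receptors TIGIT, PVRIG, CD96 and CD226 on T cells and natural killer cells. Cd47 marks a cell as not to be engulfed by engaging SIRPα on macrophages, and also binds thrombospondin-1 and integrins. Interferon-γ is the best known inducer of PD-L1 on tumour cells.

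Values are CPM, a gene's reads scaled to the total of its library, and the reads come from transcript 3′ ends. Library totals ran from 9265693 to 11250850 counts. The epithelial label of the line was borne out by most of its markers, with Krt8 at 572 to 916 CPM and Epcam at 163 to 270 CPM over the 12 libraries. Others on the epithelial list were low or uneven: Krt5 read at most 0.142 CPM, Ovol1 1.89 to 8.48 CPM and Krt14 3.98 to 90.7 CPM. The 18 leukocyte markers summed to between 7.33 and 10.7 CPM per library, most of it from Cd68 and Lyz2, and Cd3d, Cd8a, Cd4, S100a9 and Nkg7 had 0 counts. In a bulk sample, fewer cells of a type and less RNA per cell cannot be told apart. Pbrm1, the targeted gene, read 258 to 328 CPM in untreated control cells and 207 to 245 CPM in untreated KO cells, and 276 to 292 CPM against 222 to 274 CPM with TGFβ1. Those ranges did not overlap, the differences did not pass after adjustment (edgeR, adjusted p = 0.349 and 0.513), and tags at the 3′ end do not check an edit elsewhere in the gene. The replicate 3 libraries of both TGFβ1 groups stood apart from replicates 1 and 2: the median log2 level of 8 TGFβ-SMAD target genes, relative to untreated control cells, was 0.32 and 0.35 there, against 1.06 to 1.25 in the other 4 TGFβ1 libraries. Left out together, they raised the genes called after TGFβ1 from 1234 of 14012 to 3413 of 14260 in control cells and from 1593 to 3984 in KO cells. Values without them are given beside the results for the ligands and the gene lists that they moved most. These libraries were picked by their weak response to TGFβ1. Larger TGFβ1 changes and more calls without them follow in part from that choice and are no separate support.

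After TGFβ1, Cd276 and Nectin2 were higher when the response was averaged over both genotypes, by 1.44-fold and 1.24-fold. Among the tested ligands, Nectin2 was the only one that passed as lower in PBRM1 KO cells, at 0.679 of the control level averaged over both treatments. Cd47 and Pvr passed in neither averaged contrast, and the low counts of Cd274, Cd80 and Vsir allowed only coarse statements. The averaged contrasts were added after the data were seen. Taken 1 group pair at a time, no ligand passed an adjusted p of 0.05 in the fit of 1 mean per group, although several lay just above it. With the replicate number as a block, in the contrasts taken as paired, Cd276 and Pvr passed after TGFβ1 in KO cells. So did Nectin2 by genotype under TGFβ1.

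Promoters of the ligands that moved (Nectin2 and Cd276), and of Cd274 as the best known of the family, are printed so that their make-up can be compared. Each runs from 250 bases before to 50 bases after the annotated start, 5′ to 3′ on the gene's strand, in RefSeq's GRCm38.p6; the expression files used mm39, so these coordinates are not theirs. Capitals mark GGGCGG, the GC box bound by Sp1-type factors, on either strand (CCGCCC on the other) and TGACGTCA, the cyclic AMP response element. Nectin2 lies on the minus strand at chr7:19749524-19749823, Cd276 on the minus strand at chr9:58554984-58555283 and Cd274 on the plus strand at chr19:29367188-29367487.
Nectin2: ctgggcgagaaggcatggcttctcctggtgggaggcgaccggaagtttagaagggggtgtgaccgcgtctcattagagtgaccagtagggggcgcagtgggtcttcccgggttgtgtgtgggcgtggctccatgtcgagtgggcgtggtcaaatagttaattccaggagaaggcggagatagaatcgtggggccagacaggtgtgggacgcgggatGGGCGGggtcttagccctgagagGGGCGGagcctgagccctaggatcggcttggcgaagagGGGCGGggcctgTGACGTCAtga
Cd276: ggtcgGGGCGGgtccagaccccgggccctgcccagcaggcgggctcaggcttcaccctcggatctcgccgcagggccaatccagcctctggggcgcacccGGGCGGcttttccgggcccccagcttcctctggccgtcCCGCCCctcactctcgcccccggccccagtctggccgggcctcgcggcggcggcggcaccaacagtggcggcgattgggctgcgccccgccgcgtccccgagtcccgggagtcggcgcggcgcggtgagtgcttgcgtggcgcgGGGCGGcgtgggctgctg
Cd274: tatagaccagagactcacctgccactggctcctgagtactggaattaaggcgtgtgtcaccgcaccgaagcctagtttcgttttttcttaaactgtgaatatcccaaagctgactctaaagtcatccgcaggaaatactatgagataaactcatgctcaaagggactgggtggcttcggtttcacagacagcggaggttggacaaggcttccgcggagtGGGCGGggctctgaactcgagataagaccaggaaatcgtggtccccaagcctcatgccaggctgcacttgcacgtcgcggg

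The Cd276 window was 78.33% G and C with 39 CpG dinucleotides and 4 GC boxes, and the Nectin2 window 62.67% with 20 CpG and 3 GC boxes. Cd274 had 52.67%, 15 CpG and 1 GC box, and the median over 32851 promoters of this length was 52.67% and 7 CpG. The Cd80 window, at 49.67% and 3 CpG, held neither motif. The 2 Cd47 windows were 74% and 74.33% with 35 and 36 CpG, and the Vsir window was 63.67% with 15 CpG. All of these held GC boxes. Cd47, which passed in neither averaged contrast, thus stood above Nectin2 in both G and C content and CpG. TGACGTCA was found in Nectin2 alone among the 6 ligands with an entry, beginning 40 bases after the start, and 1.79% of all promoters hold it. GGGCGG is common, in 35.7% of promoters. These motifs were picked after the sequences had been read. The other motifs searched, on both strands, were the core of the interferon-stimulated response element (in 3.44% of promoters), TTCNNNGAA (gamma-activated site, 8.3%), GTCTAGAC (SMAD, 0.213%), CAGACAGA (SMAD, 2.53%) and the AP-1 site TGACTCA with its reverse complement TGAGTCA (5.2%). None of these occurred in the windows of the 6 ligands, which says only that these letters are not there. Pvr was not in the promoter table.

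Cd276, the B7-H3 gene, read 83.1, 73.9 and 67.4 CPM in untreated control replicates 1, 2 and 3, and 116, 114 and 67.8 CPM after TGFβ1. Replicates 1 and 2 lay above every untreated library while replicate 3 lay within the untreated range, so the groups overlapped. In PBRM1 KO cells the untreated replicates read 69.3, 66.5 and 62.2 CPM and the TGFβ1 replicates 130.3, 112 and 72.6 CPM. Here all TGFβ1 libraries exceeded all untreated ones, replicate 3 by the smallest margin. The means were 74.8 ± 7.90 CPM in untreated control cells, 99.5 ± 27.5 CPM with TGFβ1, 66.0 ± 3.58 CPM in untreated KO cells and 105 ± 29.5 CPM with TGFβ1 (SD, n = 3). The order of the levels was thus KO with TGFβ1, control with TGFβ1, untreated control and untreated KO, and every neighbouring pair overlapped.

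The log2 fold change of Cd276 after TGFβ1 was 0.41 ± 0.202 (SE) in control cells, with an adjusted p of 0.233 in edgeR's quasi-likelihood test with Benjamini-Hochberg adjustment over all genes tested. The change in KO cells was 0.65 ± 0.203 with an adjusted p of 0.0545. With the replicate number as an additive block over all 12 libraries, it was 0.62 with an adjusted p of 0.00345. Averaged over genotypes, Cd276 was 0.53 ± 0.143 higher (adjusted p = 0.0158), higher in 4 of 6 TGFβ1 libraries than in any untreated library. Without both TGFβ1 replicate 3 libraries the changes were 0.61 in control cells (adjusted p = 0.000276), 0.85 in KO cells (9.82e-06) and 0.73 averaged (6.69e-07). As those libraries were picked by their weak response and read lowest for Cd276 in their groups, these values are no test of the TGFβ1 effect. The smallest changes with 1 library left out were 0.27 in control cells without control TGFβ1 replicate 1 (adjusted p = 0.54; 0.28 with 0.586 without replicate 2) and 0.48 in KO cells without KO TGFβ1 replicate 1 (0.237). Leaving out control TGFβ1 replicate 3 alone gave 0.61 in control cells (0.0241) and 0.65 in KO cells (0.0118), and leaving out KO TGFβ1 replicate 3 alone gave 0.83 in KO cells (0.00446). Between genotypes Cd276 differed by -0.18 (95% interval -0.62 to 0.26) without TGFβ1 and by 0.07 (-0.37 to 0.50) with it, and neither passed.

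By library, Cd276 was set beside the SMAD target genes, without a test of association. These 9 genes (Ccn2, Smad7, Pmepa1, Skil, Tgfbi, Fn1, Ltbp2, Itgb6 and Col4a1, of which 8 were tested) were listed with their response in these data already known. Of the 8, 5 were higher after TGFβ1 in control cells and 6 in KO cells, and none was lower, where 5.89% and 7.65% of all genes tested were higher. With both TGFβ1 replicate 3 libraries left out, 9 were tested and 7 and 8 were higher, where 13.9% and 16% of all genes were. Those libraries had been picked by these same target genes. Cd276 stood 0.58 to 0.77 above the untreated control mean (log2) in the 4 TGFβ1 libraries with a target median of 1.06 or more. In the replicate 3 libraries it stood at -0.12 in control cells, within the untreated control range of -0.12 to 0.13, and at -0.03 in KO cells, above the untreated KO range of -0.26 to -0.10. The part that the smaller target response of replicate 3 has in these values was not tested.

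**Figure D1:**
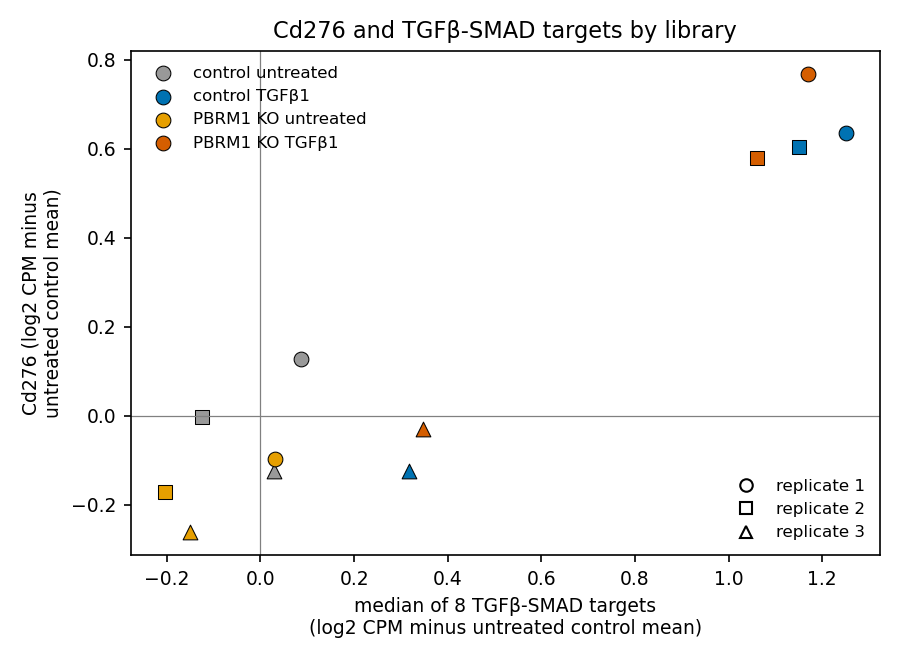
Cd276 (vertical axis) against the median of 8 TGFβ-SMAD target genes (horizontal axis), both as log2 CPM minus the untreated control mean, 1 point per library, with colour for group and shape for replicate. The TGFβ1 libraries of replicates 1 and 2 sit at the upper right, and on the Cd276 axis the TGFβ1 replicate 3 libraries sit at -0.12 (control) and -0.03 (KO), below them.

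Nectin2, which encodes the ligand of PVRIG and TIGIT, read 29.6, 23.03 and 25.3 CPM in untreated control cells and 16.8, 18.6 and 16.9 CPM in untreated KO cells. All KO libraries lay below all control libraries. With TGFβ1 it read 29.6, 31.3 and 34.4 CPM in control cells and 21.5, 21.2 and 23.2 CPM in KO cells, again with no overlap. Means were 26.0 ± 3.31 and 17.4 ± 0.985 CPM without TGFβ1, and 31.8 ± 2.47 and 22.0 ± 1.09 CPM with it (SD, n = 3). From high to low the order was control with TGFβ1, untreated control, KO with TGFβ1 and untreated KO. The first pair was separated by only 29.57 against 29.56 CPM, the middle pair overlapped, and the last pair did not.

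The log2 difference between KO and control cells was -0.58 ± 0.111 without TGFβ1 (95% interval -0.82 to -0.34), a fold of 0.671, with an adjusted p of 0.0552 in edgeR. With TGFβ1 it was -0.54 ± 0.109 (-0.78 to -0.31), a fold of 0.687, with an adjusted p of 0.0711. With the additive replicate block over all 12 libraries, the latter was -0.54 with an adjusted p of 0.0296. Averaged over treatments the difference was -0.56 ± 0.078 with an adjusted p of 0.00247, and 6 of 6 KO libraries lay below the control libraries of the same treatment. Without both TGFβ1 replicate 3 libraries the untreated difference was -0.58 with an adjusted p of 0.0117, the difference under TGFβ1 -0.52 with 0.0973, and the averaged one -0.55 with 0.0015. Leaving out either TGFβ1 replicate 3 library alone brought the untreated difference past the threshold as well (control, 0.0344; KO, 0.0449).

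The log2 change of Nectin2 after TGFβ1 was 0.29 ± 0.108 in control cells (adjusted p = 0.116) and 0.32 ± 0.112 in KO cells (0.0796), neither past the threshold. The average over genotypes was 0.31 ± 0.0779 with an adjusted p of 0.0115, and 0.24 (0.0265) once both replicate 3 libraries were left out. Unlike Cd276, Nectin2 read highest in replicate 3 of each TGFβ1 group. The 2 genotypes responded with an interaction of 0.03 (95% interval -0.30 to 0.37) on the log2 scale, so a difference between their responses was not detectable.

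Pvr, the CD155 gene and the other nectin-type ligand, read 27.7, 33.3 and 30.6 CPM in untreated control cells and 29.9, 28.9 and 42.6 CPM with TGFβ1. Replicate 3 was the only TGFβ1 library above the untreated range. Untreated KO libraries gave 26.0, 28.3 and 29.4 CPM, and those given TGFβ1 gave 33.2, 35.8 and 38.1 CPM, with no overlap. Group means ran from 27.9 ± 1.71 CPM in untreated KO cells through 30.5 ± 2.80 CPM in untreated control and 33.8 ± 7.61 CPM in control with TGFβ1 to 35.7 ± 2.43 CPM in KO with TGFβ1 (SD, n = 3), and each neighbouring pair overlapped. The log2 change after TGFβ1 was 0.15 ± 0.145 in control cells (adjusted p = 0.572) and turned to -0.07 without control TGFβ1 replicate 3. In KO cells it was 0.34 ± 0.145 with an adjusted p of 0.146, or 0.34 with 0.048 under the replicate block and 0.34 with 0.0414 without control TGFβ1 replicate 3. Averaged over genotypes it was 0.25 ± 0.103 (0.0954), and of 21 alternatives the replicate block alone passed (0.24, 0.034). That average was 0.14 (0.201) without control TGFβ1 replicate 3 and 0.11 (0.293) when both replicate 3 libraries were absent. Pvr differed between genotypes by -0.13 (95% interval -0.45 to 0.18) without TGFβ1 and 0.07 (-0.25 to 0.38) with it.

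Cd47, the SIRPα ligand, had the smallest errors of the 4 in edgeR. It read 112, 100.5 and 107 CPM in untreated control cells and 121, 115 and 114 CPM with TGFβ1, which did not overlap. Untreated KO libraries gave 99.95, 98.1 and 103 CPM, and those given TGFβ1 gave 111, 107 and 104 CPM, again without overlap. The means were 106 ± 5.71 and 117 ± 3.58 CPM in control cells and 100.3 ± 2.41 and 107 ± 3.41 CPM in KO cells (SD, n = 3). Control with TGFβ1 was highest and did not overlap KO with TGFβ1, the next in order, whereas the later neighbours (untreated control, then untreated KO) overlapped. Log2 changes after TGFβ1 were 0.13 ± 0.0699 in control cells (95% interval -0.02 to 0.28, adjusted p = 0.278) and 0.09 ± 0.0699 in KO cells (-0.06 to 0.24, 0.467). Genotype differences were -0.09 (-0.24 to 0.06) without TGFβ1 and -0.13 (-0.28 to 0.02) with it. Changes beyond 0.28 on the log2 scale lie outside all 4 intervals. Averaged over treatments, the genotype difference was -0.11 (95% interval -0.21 to -0.0014, adjusted p = 0.371). Averaged over genotypes, the TGFβ1 change was 0.11 (0.00095 to 0.21, 0.128). Cd47 carried fractional counts in 2 libraries, and the other 6 ligands in 0.

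**Figure D2:**
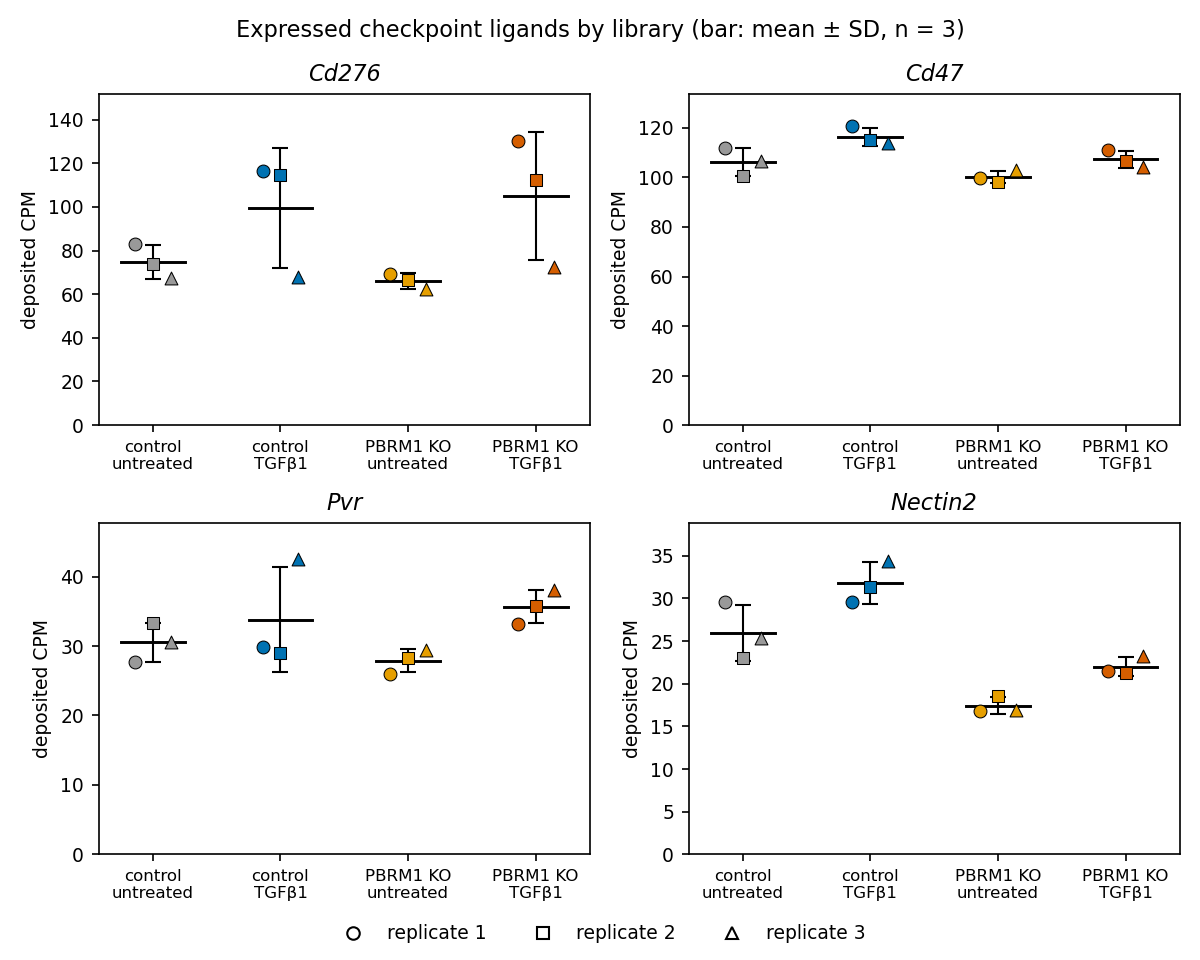
Deposited CPM (vertical axes, from 0) of the 4 tested ligands in each library, by group (horizontal axes), with the mean and SD over 3 replicates as bars and replicate number as shape. TGFβ1 replicate 3 is low for Cd276 and high for Nectin2 and Pvr, and both KO groups of Nectin2 lie below the control groups of the same treatment.

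Counted over the 4 tested ligands, 0 passed an adjusted p of 0.05 after TGFβ1 in control cells, where 8.81% of all genes tested passed. In KO cells 0 passed, against 11.4% of all genes (with the replicate block Cd276 and Pvr passed as higher, as did 12% of all genes). At an unadjusted p below 0.05 there were 1 of 4 (Nectin2; 24.5% of all genes) and 3 of 4 (Cd276, Pvr and Nectin2; 27.2%). The TGFβ1 range lay wholly above the untreated range for 2 of 4 in control cells (Cd47 and Nectin2; 14% of all genes) and for 4 of 4 in KO cells (16.1%). The median log2 change of the 4 was 0.22 in control and 0.33 in KO cells, against medians within 0.01 of 0 over all genes tested. The averaged TGFβ1 contrast called 2 of 4 as higher, where 15.1% of all genes were. Both TGFβ1 contrasts use their own untreated libraries.

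Between genotypes 0 of 4 passed without TGFβ1 (0.278% of all genes did) and 0 of 4 with it (0.271%; with the replicate block Nectin2 passed as lower, as did 0.778% of all genes). At an unadjusted p below 0.05 there was 1 of 4 each time, Nectin2, against 7.6% and 8.52% of all genes. KO ranges lay wholly below control ranges for 1 of 4 without TGFβ1 (Nectin2; 8.71%) and for 2 of 4 with it (Nectin2 and Cd47; 5.61%). Nectin2 was among the 1.91% of genes below control with no overlap under both treatments. The averaged genotype contrast called 1 of 4 as lower, where 1.28% of all genes were.

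The interaction, which asks whether TGFβ1 acted differently in the 2 genotypes, called 0 of 4 ligands and 0% of all genes in edgeR, limma-voom and DESeq2. At an unadjusted p below 0.05 there were 0 ligands and 1.76% of all genes. The estimates were 0.25 (95% interval -0.37 to 0.86) for Cd276, 0.20 (-0.25 to 0.64) for Pvr and -0.04 (-0.26 to 0.17) for Cd47. DESeq2 on the same genes called Cd276 after TGFβ1 in KO cells (0.64, adjusted p = 0.0177) and Nectin2 in both genotype contrasts (-0.57 with 0.00831 and -0.54 with 0.015), and limma-voom called no ligand in any of the 5 contrasts.

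**Figure D3:**
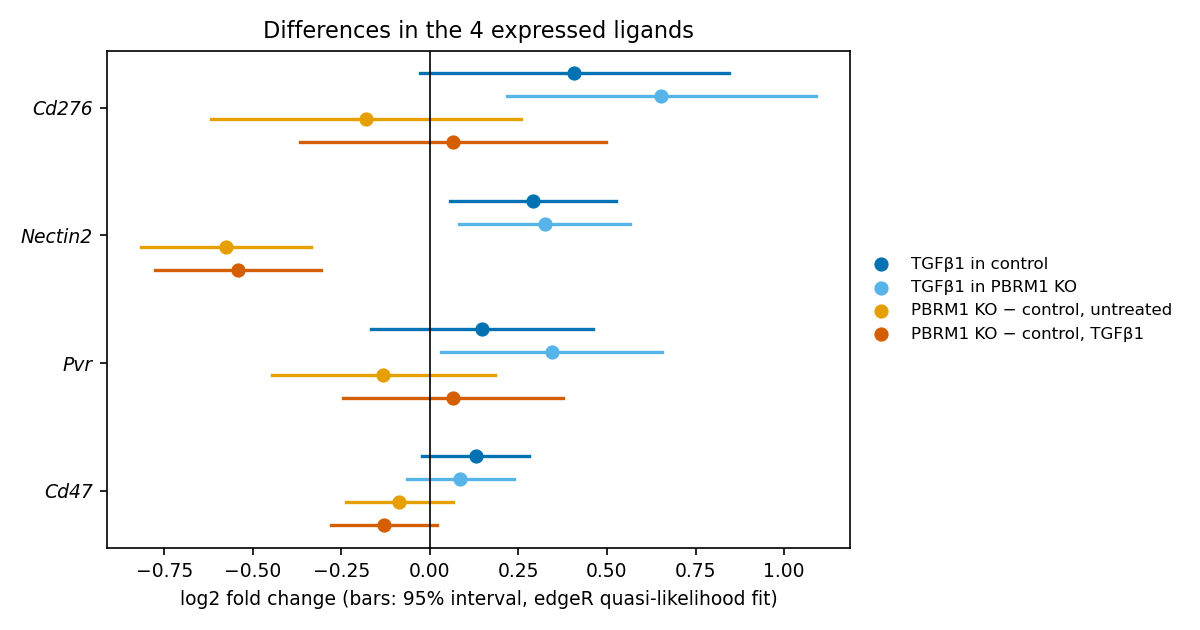
Log2 fold changes (horizontal axis) of the 4 tested ligands in 4 contrasts (colours), each with the 95% interval of the edgeR fit as a bar and a vertical line at no change. Both Nectin2 genotype intervals lie below 0, from -0.82 to -0.34 and -0.78 to -0.31, and those of Cd276, Pvr and Cd47 all cross it.

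Cd274, the PD-L1 gene, was near the limit of detection. It had 8, 6 and 6 counts in the untreated control libraries and 3, 2 and 2 with TGFβ1. KO cells had 4, 3 and 2 counts untreated and 2, 2 and 3 with TGFβ1. Untreated control cells thus held the highest counts of all groups, with no overlap with any other group. The group level was 0.639 CPM (exact Poisson 95% interval 0.39 to 0.986) in untreated control cells, 0.227 CPM (0.0911 to 0.467) in control with TGFβ1, 0.272 CPM (0.124 to 0.517) in untreated KO and 0.22 CPM (0.0884 to 0.453) in KO with TGFβ1. These intervals cover counting error only.

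The ratio of Cd274 with TGFβ1 to without was 0.355 (exact binomial 95% interval 0.127 to 0.874) in control cells and 0.808 (0.256 to 2.44) in KO cells. KO over control was 0.426 (0.171 to 0.979) without TGFβ1 and 0.97 (0.29 to 3.24) with it. Exact two-sided permutation tests gave p = 0.1 for TGFβ1 in control cells and p = 0.1 for genotype without TGFβ1, the smallest that 3 against 3 libraries can give. In edgeR without the filter on low counts the adjusted p was 0.212 and 0.861 (unadjusted, 0.0209 and 0.0477). Among genes that passed the filter, which Cd274 did not, 12.2% and 8.71% were lower with no overlap in these comparisons.

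Vsir, the VISTA gene, had 7, 2 and 5 counts in untreated control, 5, 9 and 2 in control with TGFβ1, 5, 8 and 5 in untreated KO and 4, 5 and 2 in KO with TGFβ1. All groups overlapped. The exact binomial 95% intervals of its 4 ratios each contained 1 and together ran from 0.271 to 2.65, so no difference was detectable at this depth. Cd80, whose product costimulates through CD28, had a single count in all 12 libraries, in control TGFβ1 replicate 1. For the 3 groups at 0 counts, the limit that such a count allows is 0.0908 to 0.0958 CPM per group (3 counts).

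**Figure D4:**
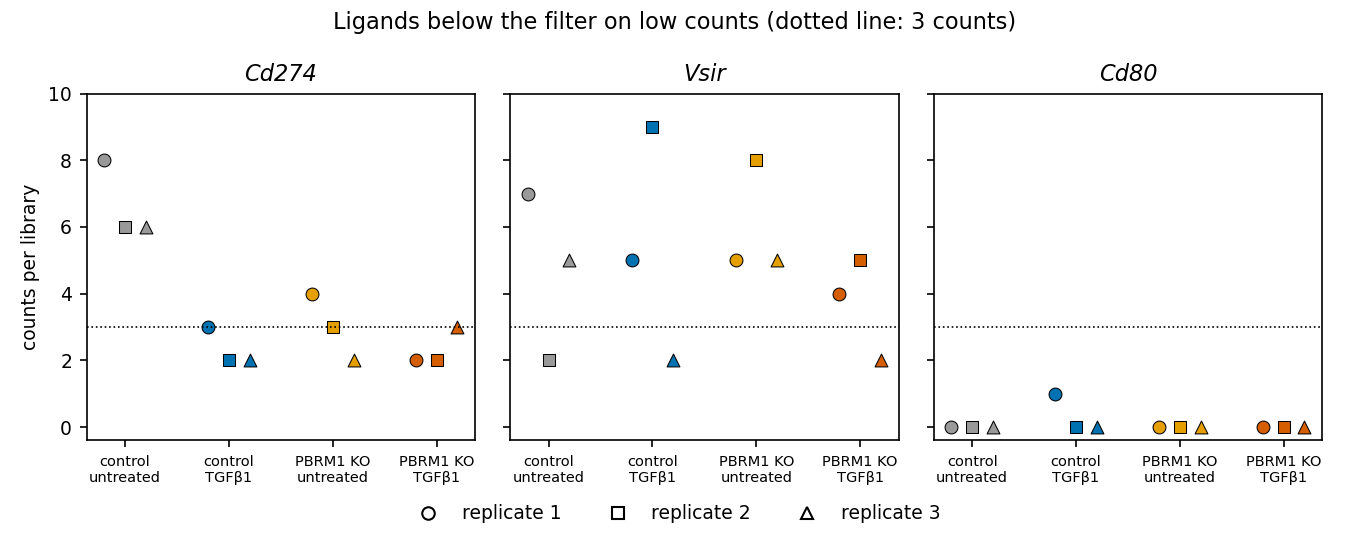
Counts per library (vertical axis) of the 3 ligands below the filter on low counts, by group (horizontal axes) and replicate (shape), with a dotted line at 3 counts. Cd274 reads 6 to 8 in untreated control cells and 2 to 4 elsewhere, Vsir 2 to 9 in all groups, and Cd80 0 in 11 of 12 libraries.

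Around these 7 genes, other ligands of the B7, butyrophilin, nectin and TNF families and further inhibitory surface genes formed a list of 27, of which 11 passed the filter. In control cells 2 were higher after TGFβ1 and 1 lower, and in KO cells 4 and 1, with a median log2 change of 0.33 and 0.39. Over all genes tested, 5.89% were higher and 2.91% lower in control cells, and 7.65% and 3.72% in KO cells. TGFβ1 counts from this same fit in the lists that follow are read against the same shares. Cd40, a TNF receptor family member with which antigen-presenting cells receive T cell help, went from a mean of 1.96 to 31.4 CPM in control cells (log2 3.99 ± 0.626, adjusted p = 0.00201) and from 0.453 to 18.3 CPM in KO cells (5.28 ± 0.803, 0.00144). Nt5e, the CD73 ectoenzyme that makes immunosuppressive adenosine, went from 66.1 to 157 CPM and from 65.1 to 130 CPM (1.25 and 0.98). Btn1a1, a butyrophilin of milk fat secretion, fell from 3.57 to 0.699 CPM and from 5.79 to 1.44 CPM (-2.32 and -2.01).

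In KO cells Nectin3, an adhesion partner of the nectins, was higher by 0.60 ± 0.164 (adjusted p = 0.032), and Cd24a, the ligand of a Siglec receptor on macrophages, by 0.42 ± 0.122 (0.0435). Their values in control cells were 0.55 and 0.33 and did not pass, and no gene passed the interaction test. Averaged over genotypes, 5 of 11 were higher after TGFβ1 and 1 lower, where 15.1% and 10.6% of all genes were. Cd86, Btn2a2, Cd70, Tnfsf4, Tnfsf18 and Ido1 had 0 counts in every library. Between genotypes 0 of 11 passed under either treatment alone, the smallest p belonging to Btn1a1 (0.69, adjusted p = 0.297, and 1.00, 0.317). Averaged over treatments, Btn1a1 was higher in KO cells (edgeR, 0.84, adjusted p = 0.0406). That made 1 higher and 0 lower of 11, where 0.678% and 1.28% of all genes were. With both TGFβ1 replicate 3 libraries left out, the counts were 5 higher and 1 lower in control cells and 6 and 1 in KO cells, while 13.9% of all genes were higher and 10% lower in control cells and 16% and 12% in KO cells. In that fit Cd40 was lower in KO than in control cells under both treatments, as was Nectin1 under TGFβ1. Of all genes, 1.02% were lower without TGFβ1 and 0.386% with it.

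**Figure D5:**
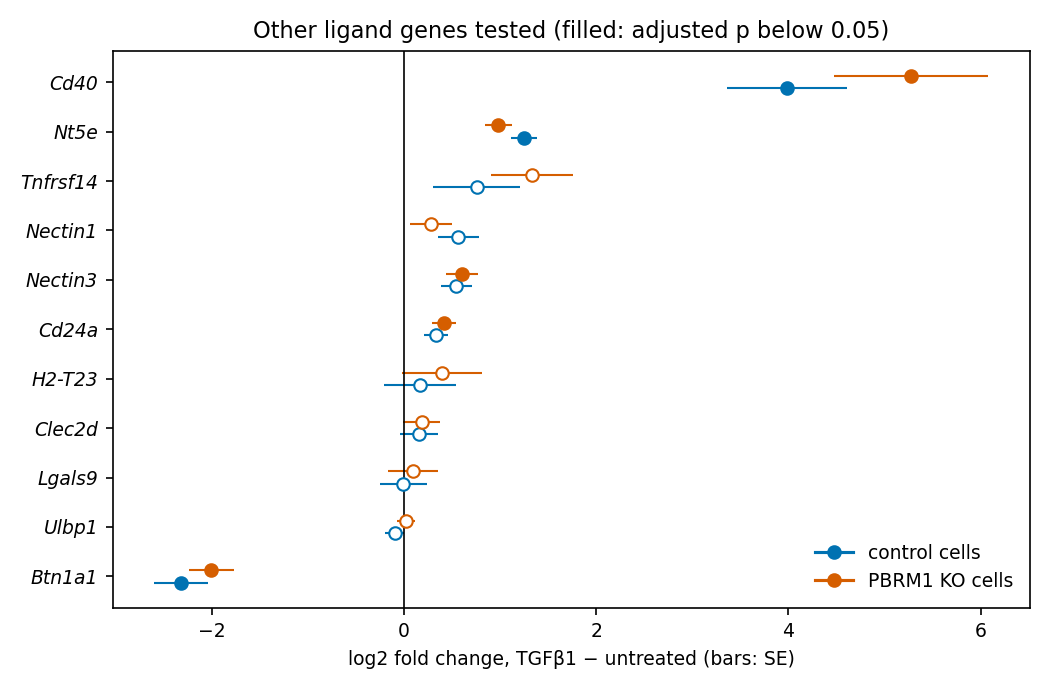
Log2 fold change after TGFβ1 (horizontal axis) with its SE as a bar for the 11 tested genes of the wider ligand list, in control cells (blue) and PBRM1 KO cells (orange). Filled points passed an adjusted p of 0.05: Cd40 and Nt5e above 0 and Btn1a1 below 0 in both genotypes, Nectin3 and Cd24a in KO cells.

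Receptors and partners of the ligands numbered 19, and 7 were tested. The 3 that were higher after TGFβ1 in both genotypes, with 0 lower, are all partners of Cd47. Sirpa, the gene of its receptor SIRPα, did not share this. It went from 18.5 to 19 CPM in control cells (0.04, adjusted p = 0.901) and from 21.8 to 19.8 CPM in KO cells (-0.15, 0.53). Thbs1, thrombospondin-1, went from 447 to 800 CPM in control cells (0.84 ± 0.175) and from 482 to 736 CPM in KO cells (0.60 ± 0.175). Itgb3, the integrin β3 chain, went from 2.16 to 35.6 and from 1.78 to 39.6 CPM (4.02 and 4.44), and Itgav, the αv chain, changed by 0.52 and 0.50. The checkpoint and costimulatory receptor genes Pdcd1, Cd226, Pvrig, Treml2, Icos and Btla had 0 counts. Tigit, the receptor of Nectin2 and Pvr, was tested and read 0.755 to 7.36 CPM over the 12 libraries, and Havcr2, the TIM-3 gene, read 0.555 to 3.17 CPM. Tigit changed by -0.14 and -0.50 after TGFβ1 in control and KO cells (adjusted p = 0.929 and 0.693), and Havcr2 by 1.02 and 1.18 (0.105 and 0.0809), none past the threshold. None of the 7 passed between genotypes, where Igsf11, the gene of a VISTA ligand, had the smallest p (-1.55, adjusted p = 0.537, and -1.19, 0.414). With both TGFβ1 replicate 3 libraries left out, the counts were 5 higher and 1 lower in control cells and 4 and 1 in KO cells. In that fit 13.9% of all genes were higher and 10% lower in control cells, and 16% and 12% in KO cells. The lower gene was Tigit in both genotypes, and the added higher genes were Havcr2 in both and Igsf11 in control cells.

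Regulators of PD-L1 transcription, in the main the interferon-γ, JAK-STAT, NF-κB and AP-1 genes, numbered 21 and were all tested. In control cells 4 were higher after TGFβ1: Socs3, a feedback inhibitor of JAK signalling (0.82 ± 0.123, adjusted p = 0.00149), Stat3 (0.84 ± 0.206, 0.0238), Nfkb1 (0.39 ± 0.0942, 0.0238) and Ifngr1, the interferon-γ receptor chain (0.47 ± 0.13, 0.041). In KO cells Socs3 (0.89) and Ifngr1 (0.51) were higher and Socs1, another JAK inhibitor, was lower (12.6 to 4.88 CPM, -1.36 ± 0.334, 0.0197). With the replicate block the counts in KO cells were 5 higher and 3 lower, where 12% and 7.84% of all genes were. Without both TGFβ1 replicate 3 libraries they were 9 and 2 in control cells (13.9% and 10% of all genes) and 8 and 2 in KO cells (16% and 12%). The median change with all libraries was 0.19 and 0.18. Averaged over genotypes, again with all libraries, 9 were higher and 1 lower, where 15.1% and 10.6% of all genes were.

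Nlrc5, the transactivator of major histocompatibility class I genes, was the 1 regulator lower in PBRM1 KO cells in the fit of 1 mean per group. Of all genes tested, 0.236% were lower without TGFβ1 and 0.2% with it. Nlrc5 fell from 5.59 to 1.72 CPM without TGFβ1 (-1.69 ± 0.212, adjusted p = 0.00337) and from 6.45 to 2.03 CPM with it (-1.66 ± 0.205, 0.00568). It passed also with the replicate block and without both TGFβ1 replicate 3 libraries. After TGFβ1 it changed by 0.20 and 0.23, which did not pass. The genotype contrasts without and with TGFβ1 share no library. Averaged over treatments, Stat2 differed by -0.51 (edgeR, adjusted p = 0.0842). It passed as lower there with the replicate block and without both TGFβ1 replicate 3 libraries, where 2.65% and 1.81% of all genes did.

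The protein handling list held 17 genes of PD-L1 and CD47 stability, modification and shedding, all tested. Adam10, a sheddase of surface proteins, was higher after TGFβ1 in control (0.47 ± 0.132, adjusted p = 0.0439) and KO cells (0.46 ± 0.132, 0.0391). In KO cells Hip1r, which sends PD-L1 to the lysosome, was higher by 1.00 ± 0.248 (0.0208) and Usp22, a deubiquitinase, by 0.37 ± 0.109 (0.0433). Their values in control cells were 0.72 and 0.35. Averaged over genotypes, 5 genes of the list were higher and 2 lower, where 15.1% and 10.6% of all genes were. The counts were 1 higher and 0 lower in control cells and 3 and 0 in KO cells. With the replicate block they were 4 and 1 in KO cells, where 12% and 7.84% of all genes were. Without both TGFβ1 replicate 3 libraries they were 3 and 2 in control cells (13.9% and 10% of all genes) and 5 and 1 in KO cells (16% and 12%). Between genotypes 0 of 17 passed, with the smallest p for Zdhhc9, a palmitoyltransferase (-0.33, adjusted p = 0.489, and -0.22, 0.663).

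Genes whose level across the 12 libraries was most like that of each tested ligand were sought among 8142 genes with a mean of at least 10 CPM, as a description without a test. Among the genes most like Cd276 were Stx7 (Pearson r = 0.982) and Gne (0.981). Gne, an enzyme of sialic acid synthesis, changed by 0.47 and 0.74 after TGFβ1 in control and KO cells. Nectin2 was most like Tmem176a (0.957), Slc2a1 (0.955) and Tmem176b (0.955); the neighbouring pair Tmem176a and Tmem176b differed by -0.91 and -0.90 between untreated KO and control cells and by -0.52 and -0.70 with TGFβ1. Cd47 was most like Rmc1 (0.926), Tram1 (0.924) and Usp54 (0.924), and Pvr most like Poglut2 (0.856), Zbed5 (0.85) and Pip5k1c (0.849). The 12 points share the 4 groups, and the TGFβ1 replicate 3 libraries that stood apart are among them.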

How the data were processed

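Poly(A)-primed, tagmented libraries were sequenced from 1 end, strand-aware, at transcript 3′ ends, with molecular identifiers to remove duplicates (per the labels' protocols). The submitters' processing notes name genome build mm39, STAR 2.7.11, fastp 0.24.0, edgeR 3.38.4, Subread 2.1.1 with featureCounts, and SAMtools 1.22.1, with no settings. Deposited by the authors were expected counts, of which 91.8% were whole, and CPM values, named so per the file headers.

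After rounding, filterByExpr and TMM scaling, edgeR 4.0.16 (R 4.3.3) fitted 1 mean per group over 12 libraries. The quasi-likelihood test was adjusted by Benjamini-Hochberg over 14012 genes, and a gene passed below 0.05. Each SE was derived from the F statistic. The scripts were tested on simulated counts. The ligands, lists and contrasts were chosen with earlier results of these data known. From each of 7 lists (126 genes) up to 4 passing genes per direction were named by p, or those with the smallest p, plus the 3 genes most like each tested ligand, of which 1 is not reported here. The SMAD list and averaged contrasts were added after the data were seen.

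The labels number biological replicates and state no shared day. Same-numbered libraries deviated together (r = 0.188, 0.121, 0.194 for TGFβ1 in KO cells, and r = 0.373, 0.39, 0.7 for genotype under TGFβ1), so these contrasts were taken as paired. Libraries of unlike number were not compared in this way. The block was an additive effect of replicate number over all 12 libraries, also those of contrasts not taken as paired. It does not model a replicate that differs in its TGFβ1 libraries only. P-values measure the spread between the replicates as labelled, and no pair of libraries was a copy. Alternatives covered scaling (RLE, library size), filtering (none, 10 CPM), rounding, limma-voom (limma 3.58.1), DESeq2 1.42.0, a 6-library fit, the replicate block and left-out libraries.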

Additional observations from a re-analysis of the deposited data

How the results depend on the processing

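Besides the values reported, each tested ligand was refitted in each contrast under the alternatives, 604 fits in all. Of these 566 kept their direction and side of the threshold, 24 passed where the reported value did not, and 14 changed sign. The averaged calls (Cd276 and Nectin2 after TGFβ1, Nectin2 by genotype) passed in all 21 alternatives each, at 0.44 to 0.73, 0.24 to 0.34 and -0.59 to -0.51, with adjusted p of 5.15e-09 to 0.048, 0.00767 to 0.0482 and 2.16e-06 to 0.0126. Sign changes: Pvr after TGFβ1 in control cells was -0.0654 without both TGFβ1 replicate 3 libraries and -0.0655 without the control one. Cd276 by genotype with TGFβ1 was -0.142 without control TGFβ1 replicate 3 and -0.105 without KO TGFβ1 replicate 1, and Pvr -0.0148 and -0.0387 without control TGFβ1 replicates 1 and 2. The Nectin2 interaction was -0.0503, -0.0162 and -0.0238 without untreated control replicate 1, control TGFβ1 replicate 1 and KO TGFβ1 replicate 3. Genotype averaged over treatments gave 0.0063 and 0.0431 for Cd276 without control TGFβ1 replicate 1 and KO TGFβ1 replicate 3, and 0.043, 0.00559 and 0.0739 for Pvr without both TGFβ1 replicate 3 libraries, untreated control replicate 2 and control TGFβ1 replicate 3. Over each library left out, these ranged from -0.142 to 0.264 and -0.0387 to 0.278 (Cd276 and Pvr, genotype with TGFβ1), -0.0503 to 0.113 (Nectin2 interaction), and -0.16 to 0.0431 and -0.0845 to 0.0739 (Cd276 and Pvr, genotype averaged). None of these values passed in either direction, and the cause was not tested.

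The count of ligands passing, reported as 0, was 1 after TGFβ1 in control cells with no filter, with the replicate block and without both replicate 3 libraries (each library left out: 0 to 1). In KO cells it was 1 with no filter, without both replicate 3 libraries, in the 6 libraries alone and in DESeq2, and 2 with the block (0 to 2). For genotype without TGFβ1 it was 1 with no filter, the block, without both replicate 3 libraries, in the 6 libraries alone and in DESeq2 (0 to 1), and with TGFβ1 1 with no filter, the block and DESeq2 (0 to 0). The interaction stayed at 0. The replicate block moved the genes called from 1234, 1593, 39 and 38 in the first 4 contrasts to 2396, 2780, 144 and 158, no filter to 2115, 2413, 278 and 259 (and 18 for the interaction), and the absence of both replicate 3 libraries to 3413, 3984, 201 and 76. DESeq2 called 106 and 89 by genotype, at least 10 CPM 17 and 21, and the 6 libraries alone 135 and 4. Leaving out 1 library gave 408 to 2400, 613 to 3059, 8 to 75 and 3 to 61.

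For TGFβ1 in control cells and genotype without TGFβ1, numbers did not pair the libraries (correlations 0.244, -0.0698 and 0.131, and 0.129, 0.0596 and 0.121). There the replicate block gave Cd276 0.382 (adjusted p = 0.0498) and Nectin2 -0.576 (0.0241). Scalings moved the median of all genes by under 0.1. Depth limits Cd274, Cd80 and Vsir, whose counts per library were 0 to 9, and 3 replicates allow no exact permutation p below 0.1.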

Other observations

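Epithelial, fibroblast and leukocyte markers describe the cells that carried these ligands. Of 12 epithelial markers 11 were tested. After TGFβ1 in control cells 5 were lower and 0 higher (edgeR), where 2.91% and 5.89% of all genes tested were. Krt19 (-1.05 ± 0.154, adjusted p = 0.00136) and Krt8 (-0.49 ± 0.0728, 0.00141) led the lower genes, with Krt18, Cdh1 and Ovol1. In KO cells 4 were lower and 1, the tight junction gene Cldn4, higher (1.12 ± 0.195, 0.00317), where 3.72% and 7.65% of all genes were. With the replicate block the KO counts were 5 lower and 2 higher (Krt14 and Cldn4), where 7.84% and 12% of all genes were. With both TGFβ1 replicate 3 libraries left out, 5 were lower in each genotype, 2 higher in control cells (Krt14 and Cldn4) and 4 higher in KO cells (these and Epcam and Grhl2), where 13.9% and 16% of all genes tested were higher and 10% and 12% lower. The summed epithelial level was 2860 to 3090 CPM in untreated control cells and 2130 to 2630 CPM with TGFβ1, and 2560 to 2780 and 2410 to 2780 CPM in KO cells. Between genotypes 0 of 11 passed, Cldn4 having the smallest p without TGFβ1 (-0.83, 0.12) and Krt19 with it (0.47, 0.346). Without TGFβ1, 2 of 11 (Krt14 and Cldn4) were lower in KO cells when both TGFβ1 replicate 3 libraries were left out, where 1.02% of all genes were. With the replicate block 1 (Cldn4) was lower, where 0.749% of all genes were, although numbers did not pair those libraries. Of 12 fibroblast and endothelial markers 5 were tested, and Pdgfrb, a growth factor receptor of mesenchymal cells, was higher after TGFβ1 in KO cells (5.00 ± 0.947, 0.00529) and read 2.37 with 0.12 in control cells. Col1a1, a fibrillar collagen chain, was also higher in KO cells with the block, and Col1a1 and Pdgfrb were higher in both genotypes with both replicate 3 libraries left out. Of the 18 leukocyte markers the 2 tested, Cd68 and Lyz2, passed in no contrast. In the fit that left out both replicate 3 libraries 3 were tested, and Csf1r, a receptor of macrophages that read at most 1.18 CPM in any library, was higher after TGFβ1 in KO cells. Cd68, a lysosomal protein, read 0.32 and 0.55 (log2) in KO against control cells without and with TGFβ1 (0.826 and 0.394). The part of these marker levels in the ligand values was not tested.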
